A study of Homo sapiens with 4 samples.

Results

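Axons are steered by ligands that act on receptors of the growth cone, and the genes of these ligands and receptors were followed here in SK-N-SH cells with a gain of the long non-coding RNA AP1AR-DT. A gene was a member when its symbol was that of a class 3 to 7 semaphorin, a plexin, a neuropilin, an ephrin, an Eph receptor, a SLIT, a ROBO receptor, a netrin numbered in the NTN series, an UNC5 receptor or DCC. The count table held 64 such genes among 24014, of which 34 encode ligands and 30 encode receptors. DCC, EPHA3, EPHA5, EPHA7 and NTN4 were not analysed here. SK-N-SH is a human neuroblastoma line, and its RNA was sequenced in 4 libraries. Of these, 2 came from cells transduced with an empty lentivirus (control) and 2 from cells transduced with a lentivirus that expressed AP1AR-DT (AP1AR-DT_OE), so that the cells of both groups had met a lentivirus per the treatment labels. The titles and genotype labels call the controls wild type. The series was made to study what AP1AR-DT, an RNA linked to bipolar disorder, does in a neural cell. Whether the numbered libraries of a group came from separate cultures, whether the transduced cells were a clone and how long after transduction they were harvested is not given in the sources used here. The p-values below therefore measure the spread between these libraries, which may be technical. The tests draw the spread of a gene in part from the other genes of the table, so an SE is not that of the gene's own libraries alone.

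Guidance cues act as repellents or attractants according to the receptors that a cell displays. Class 3 semaphorins are secreted and signal through plexins with neuropilins as co-receptors, while most other semaphorins are membrane-bound and bind plexins directly. Ephrins are held on the surface of one cell and bind Eph receptor tyrosine kinases on the next, so that both cells can respond. SLIT proteins repel axons through ROBO receptors. Netrins attract through DCC and repel through UNC5 receptors. Many of these proteins also act outside the nervous system, in the migration of neural crest cells, from which neuroblastoma arises, and in the growth of blood vessels.

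The libraries held between 21988065 and 26184599 counts, of which the 64 genes took 0.485% and 0.396% in control 1 and 2 and 0.442% and 0.380% in AP1AR-DT_OE 1 and 2. AP1AR-DT, listed under its clone name RP11-73K9.2 (ENSG00000260526, chromosome 4, 112229561 to 112231596), had 3 and 18 counts in control cells against 680 and 1065 in AP1AR-DT_OE cells, as the labels give them. SK-N-SH cultures hold adrenergic, neuroblast-like cells and mesenchymal, substrate-adherent cells. Of 12 adrenergic markers 11 were in the table, 10 of them at a mean of at least 50 normalized counts, and all 12 mesenchymal markers were above that level. Markers of Schwann cells and glia (5 of 8 found) did not exceed 92 counts in any library, and those of blood and endothelium (2 of 8 found) did not exceed 14. The summed normalized count of the mesenchymal list was 257476 and 183793 in control cells against 256519 and 202859 in AP1AR-DT_OE cells, and that of the adrenergic list was 31449 and 25409 against 30239 and 27736. The mesenchymal sum came mostly from VIM, COL1A1, TGFBI and FN1 (control means of 80502, 40201, 39332 and 24061), so it says little about the other markers. One mesenchymal marker, PRRX1, had 2432 and 14724 counts in control cells against 1131 and 2263 in AP1AR-DT_OE cells, and it was the only gene of the 4 marker lists with an unadjusted p under 0.05. The part of cell composition in the values below was not tested, and in bulk RNA fewer cells of a type and less RNA per cell cannot be told apart.

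No axon guidance gene passed the test for a difference between AP1AR-DT_OE and control. Counts were compared with the Wald test of DESeq2 over all 24014 genes, and an adjusted p under 0.05 was needed for a call. None of the 64 genes was called, in a table where 33 genes were (0.137%). None had an unadjusted p under 0.05 either, a level that 196 genes of the table reached (0.816%). The quasi-likelihood test of edgeR, which kept 57 of the 64 genes, found none at either level, but it called 0 of the 17027 genes it tested (0%) and put 112 of them at an unadjusted p under 0.05 (0.658%). With 2 libraries in each group and SEs of 0.43 to 0.77 on the log2 scale, this test left wide intervals, and the 95% intervals of the 50 genes described below reached from -1.83 to 1.88. For 13 of these 50 genes the whole interval lay within 1 log2 unit of 0.

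How well a gene was measured differed greatly over the families. A normalized count is the count divided by the size factor of its library, and 50 of the 64 genes had a mean of at least 50 over the 4 libraries. The other 14 did not exceed 58 counts in any library. A floor of 12 counts, the upper limit that 0 observed read pairs allows when each pair is worth about 4 counts, covers counting error only. The ephrin receptor EPHA6, the netrin receptor UNC5D and the kinase-inactive Eph receptor EPHB6 were at or under this floor in all 4 libraries. SEMA3E, SEMA5B, NTN5, PLXNC1, ROBO2 and SLIT1 exceeded it in 1 library each, and NTN1 and SEMA6D in 2. EPHA10 was over the floor in 3 libraries and EPHA4 and EPHA8 in all 4. No fold change is given for these 14 genes. Netrin-1, the best known attractant of commissural axons, had 14, 0, 18 and 4 counts, and PLXNC1, the receptor of SEMA7A, had 0, 19, 5 and 6.

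Levels were compared between genes only as normalized counts per kb of transcript. EPHA2, a receptor of ephrin-A ligands, had the highest level of all 64 genes, with 3919 and 2325 per kb in control 1 and 2 and 3405 and 2463 per kb in AP1AR-DT_OE 1 and 2. It made up 96.9% to 97.4% of the summed level of the EPHA genes in the 4 libraries. PLXNB2, a plexin that binds class 4 semaphorins, came next. It had 2362 and 1109 per kb in control cells against 1935 and 1317 per kb in AP1AR-DT_OE cells. Its highest library overlapped the lowest of EPHA2, while EPHA2 was above PLXNB2 within each of the 4 libraries. SEMA3F, UNC5B and PLXNA1 followed with means of 1143, 1116 and 1061 per kb, and the values of these 3 genes overlapped. EFNA4 had a mean of 941 per kb, PLXNA2 of 885, EPHB4 of 884, NRP1 of 685 and SEMA4C of 675, and each of them overlapped its neighbour in this order.

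**Figure D1:**
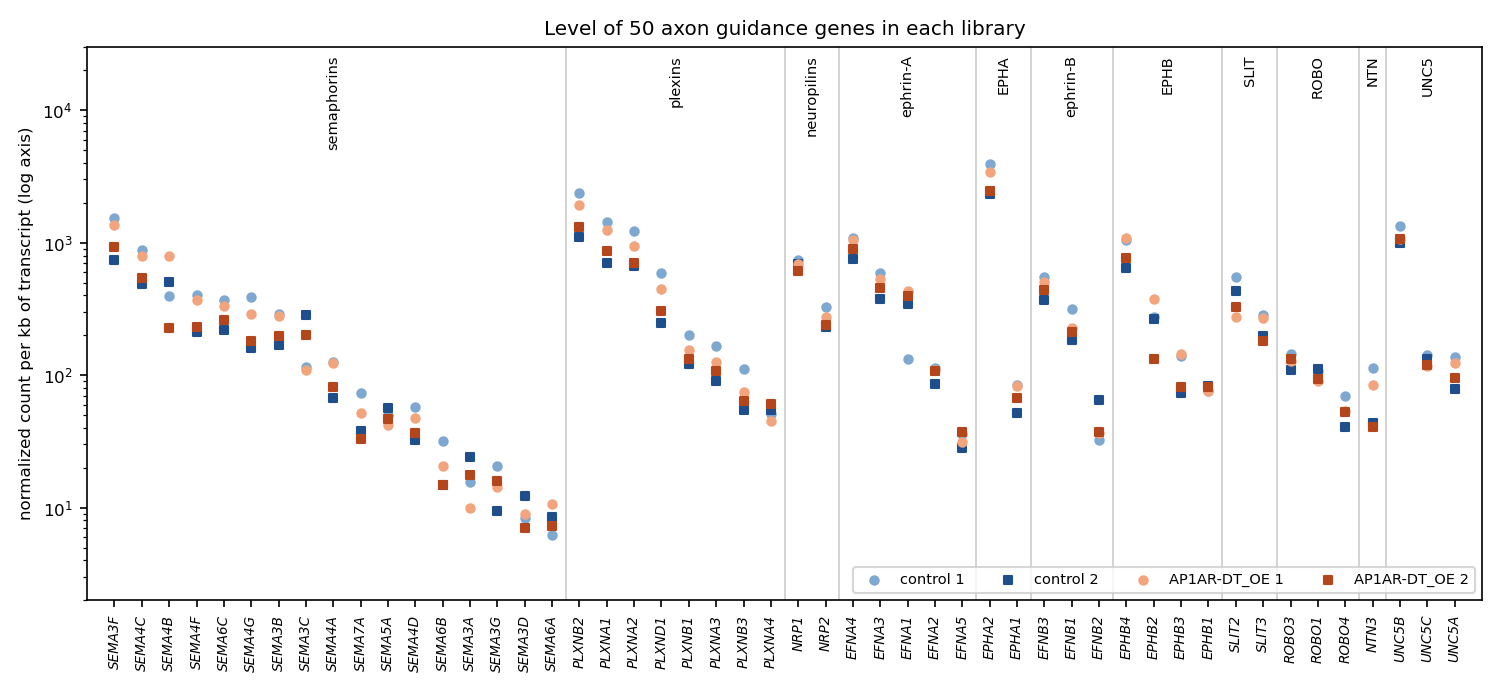
The normalized count per kb of transcript is plotted on a log axis for the 50 genes whose mean normalized count reached 50, by family and in order of their mean, with 1 point for each of the 4 libraries. EPHA2 stands highest at 2325 to 3919 per kb, and control 1 lies above control 2 for most genes.

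Most families were carried by 1 gene in every library. PLXNB2 gave 86.3% to 89.4% of the summed PLXNB level, UNC5B 81.5% to 83.2% of the UNC5 level, SEMA6C 89.7% to 91.2% of the class 6 semaphorins and NRP1 69.4% to 75.1% of the neuropilins. SEMA3F gave 59.8% to 77.2% of the class 3 semaphorins. Shares were lower for SEMA4C in the class 4 semaphorins (32.9% to 41.7%), PLXNA1 in PLXNA (46.2% to 53.0%) and EFNA4 in ephrin-A (47.4% to 55.2%). In the ROBO family the leading gene, ROBO3, gave only 41.7% to 47.4%, with 143, 110, 128 and 133 per kb in control 1, control 2, AP1AR-DT_OE 1 and AP1AR-DT_OE 2. ROBO3 is the ROBO receptor that in commissural axons offsets SLIT repulsion. ROBO1, the main SLIT receptor, came next in mean level. It had 107 and 112 per kb in control cells against 90.3 and 93.3 per kb in AP1AR-DT_OE cells, and was above ROBO3 in control 2 alone.

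The change between the groups was small next to its error. Among the 50 genes the log2 fold change, AP1AR-DT_OE over control, ran from -0.70 for SLIT2 to 0.79 for EFNA1. It was above 0 for 18 genes and below 0 for 32, with a median of -0.08, while the median of the 13298 genes of the table at this level was -0.02. The median size without regard to sign was 0.12 for the 50 genes and 0.12 for the 13298. For 38 of the 50 genes the size was under 0.25, and for 3 (SLIT2, EFNA1 and SEMA3A) it was at least 0.5. The sign of the median rested on single libraries, since it was 0.31 without control 1 and 0.06 without AP1AR-DT_OE 2. Ligands (28 genes) had a median of -0.04 and receptors (22 genes) one of -0.09.

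**Figure D2:**
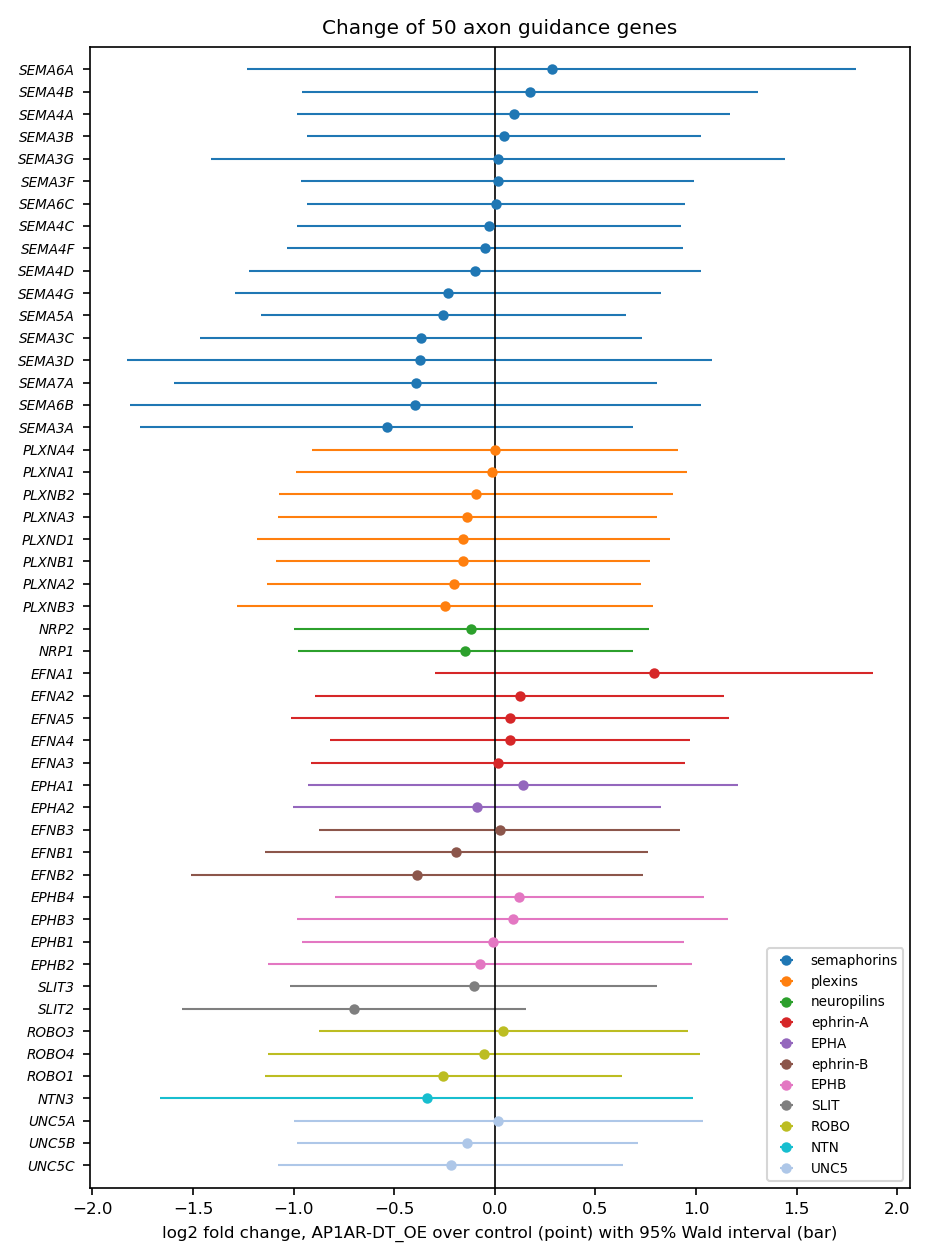
The log2 fold change of AP1AR-DT_OE over control is shown for each of the 50 genes as a point with its 95% Wald interval as a bar, coloured by family. Every interval includes 0, and SLIT2 at -0.70 and EFNA1 at 0.79 are the farthest from it.

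The SLIT family held the largest decrease in value. SLIT2 (ENSG00000145147, chromosome 4, 20251905 to 20620561), a secreted repellent, had normalized counts of 4440 and 3468 in control cells against 2228 and 2633 in AP1AR-DT_OE cells. Both AP1AR-DT_OE libraries were thus below both controls, at 2431 ± 287 against 3954 ± 687 (SD, n = 2). The log2 fold change was -0.70 (SE 0.44, 95% interval -1.56 to 0.15), with an unadjusted DESeq2 p of 0.108, the lowest of the 50 genes. It was -0.99 between the libraries numbered 1 and -0.40 between those numbered 2. The summed level of the SLIT genes was 840 and 629 per kb in control cells against 549 and 509 per kb in AP1AR-DT_OE cells. SLIT2 gave 65.7% and 68.5% of this sum in control cells and 50.3% and 64.3% of it in AP1AR-DT_OE cells. With counts corrected within each library for the GC content of the transcript, the DESeq2 log2 fold change was -0.71 and its unadjusted p 0.00799, and after adjustment over all genes SLIT2 was not called. With the library number as a block added to this correction it was called, at a log2 fold change of -0.71 and a DESeq2 adjusted p of 0.0442, while with the block alone its adjusted p was 0.652. Without control 2 the unadjusted p was 0.0295 at a log2 fold change of -0.86.

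The other SLIT and ROBO genes above a mean of 50 had smaller fold changes. SLIT3 had 2787 and 1922 normalized counts in control cells against 2615 and 1766 in AP1AR-DT_OE cells, so that the groups overlapped at a log2 fold change of -0.10 ± 0.47 (SE). ROBO1 (ENSG00000169855, chromosome 3, 78597239 to 79767998) had 744 and 775 normalized counts in control cells against 625 and 646 in AP1AR-DT_OE cells. The groups did not overlap, and the log2 fold change was -0.26 (SE 0.45, unadjusted DESeq2 p 0.571). ROBO3 differed by 0.04 ± 0.47 and ROBO4, a ROBO receptor of endothelial cells, by -0.05 ± 0.55 on the log2 scale.

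The promoter of SLIT2 is printed as RefSeq gives it for GRCh38.p14, from 250 bases before to 50 bases after the start of transcription, because SLIT2 had the largest decrease in value. That of PLXNA1 is printed because it was the only one that held the motif searched, a core of the site of NRF1, the transcription factor that the study set against AP1AR-DT at another gene. The motif was GCGCANGCGC on either strand, where N is any base, and its match is in capitals.
SLIT2 (chr4:20251655-20251954, plus strand): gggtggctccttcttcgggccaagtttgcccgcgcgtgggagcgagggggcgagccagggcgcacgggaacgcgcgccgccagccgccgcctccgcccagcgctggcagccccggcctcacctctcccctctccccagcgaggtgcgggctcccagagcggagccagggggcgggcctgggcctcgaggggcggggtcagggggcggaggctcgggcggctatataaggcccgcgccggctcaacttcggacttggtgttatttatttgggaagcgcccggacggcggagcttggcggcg
PLXNA1 (chr3:126982865-126983164, plus strand): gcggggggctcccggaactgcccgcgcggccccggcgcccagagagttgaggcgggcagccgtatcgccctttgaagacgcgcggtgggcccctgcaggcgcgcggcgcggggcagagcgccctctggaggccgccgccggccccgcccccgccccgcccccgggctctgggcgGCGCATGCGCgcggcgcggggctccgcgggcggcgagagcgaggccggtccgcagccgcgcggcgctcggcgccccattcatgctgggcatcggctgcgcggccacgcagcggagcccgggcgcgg
The 300 bases of SLIT2 are 74.3% G and C and hold no match, and those of PLXNA1 are 83.0% G and C with the match starting at base 175. Promoters were found for 54 of the 64 genes, 82 in all, and 1 of these 82 held the motif, against 2031 of 35116 RefSeq promoters of this length (5.78%). A match is a match of letters and not a measured site. PLXNA1, a receptor chain for class 3 semaphorins, had 13350 and 6519 normalized counts in control cells against 11662 and 7988 in AP1AR-DT_OE cells, and its log2 fold change was -0.02 ± 0.50 (SE).

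Netrin receptors above a mean of 50 had log2 fold changes from -0.22 to 0.02, with SEs of 0.43 to 0.52. UNC5B (ENSG00000107731, chromosome 10, 71212570 to 71302864), a netrin receptor that also acts in blood vessels, had 9206 and 6785 normalized counts in control cells against 7290 and 7259 in AP1AR-DT_OE cells. The AP1AR-DT_OE values lay between the controls, at a log2 fold change of -0.14 ± 0.43 (SE). UNC5C (ENSG00000182168, chromosome 4, 95162504 to 95549206) had 1380 and 1269 normalized counts in control cells against 1133 and 1144 in AP1AR-DT_OE cells. Here the groups did not overlap, but the log2 fold change of -0.22 had an SE of 0.44. UNC5A, at 511, 295, 462 and 354 normalized counts, differed by 0.02 ± 0.52. NTN3 was the only gene above a mean of 50 among the netrins of the NTN series that were members. It had 248 and 95.7 normalized counts in control cells against 183 and 88.3 in AP1AR-DT_OE cells. The libraries numbered 1 were above those numbered 2 in both groups. The log2 fold change of NTN3 was -0.34 ± 0.68.

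Semaphorins formed the largest family, with 17 of 20 genes at a mean of at least 50. Their log2 fold changes ran from -0.54 for SEMA3A to 0.28 for SEMA6A, with 7 above and 10 below 0 and a median of -0.05. SEMA3A (ENSG00000075213, chromosome 7, 83955777 to 84492724), the prototype of the secreted repellents, had 128 and 196 normalized counts in control cells against 80.1 and 143 in AP1AR-DT_OE cells. AP1AR-DT_OE 2 was above control 1, so the groups overlapped, and the SE was 0.63. SEMA3F (ENSG00000001617, chromosome 3, 50155045 to 50189075), a ligand that acts through NRP2, had 5516 and 2688 normalized counts in control cells against 4939 and 3342 in AP1AR-DT_OE cells. Its log2 fold change was 0.01 ± 0.50, while control 2 was 1.04 log2 units below control 1.

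The controls differed from each other in opposite directions among the class 3 genes. SEMA3A, SEMA3C and SEMA3D have transcripts of 36.7% to 37.1% G and C, and in all 3 control 2 was above control 1, by 0.54 to 1.31 log2 units. SEMA3B, SEMA3F and SEMA3G have 58.6% to 63.9% G and C, and in all 3 control 2 was below control 1, by 0.78 to 1.12 log2 units. In the AP1AR-DT_OE libraries SEMA3D (-0.34) and SEMA3G (0.16) went the other way. The log2 fold changes between the groups were -0.54, -0.37 and -0.37 for SEMA3A, SEMA3C and SEMA3D and 0.04, 0.01 and 0.02 for SEMA3B, SEMA3F and SEMA3G. SEMA3C, at 561 and 1390 normalized counts in control cells against 534 and 980 in AP1AR-DT_OE cells, had an SE of 0.56.

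Membrane-bound semaphorins included the gene whose libraries disagreed most. SEMA4B (ENSG00000185033, chromosome 15, 90160604 to 90229679) had 1502 and 1915 normalized counts in control cells against 3008 and 852 in AP1AR-DT_OE cells. One AP1AR-DT_OE library was above both controls and the other below both, so that the log2 ratio was 1.00 between the libraries numbered 1 and -1.17 between those numbered 2. The log2 fold change of 0.18 ± 0.58 therefore averaged opposite values, and it was -0.06 with the GC correction and -1.01 without AP1AR-DT_OE 1. SEMA5A (ENSG00000112902, chromosome 5, 9035033 to 9546075) had 583 and 662 normalized counts in control cells against 490 and 553 in AP1AR-DT_OE cells. The groups did not overlap, and the log2 fold change was -0.26 ± 0.46. SEMA6A and SEMA6B were near the limit of 50, at 42.1, 57.9, 72.4 and 49.6 and at 123, 57.1, 79.0 and 57.6 normalized counts in control 1, control 2, AP1AR-DT_OE 1 and AP1AR-DT_OE 2. Their log2 fold changes were 0.28 ± 0.77 and -0.40 ± 0.72. SEMA7A, which is held in the membrane by a lipid anchor, had 249 and 127 normalized counts in control cells against 174 and 112 in AP1AR-DT_OE cells, at -0.39 ± 0.61.

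The semaphorin receptors above a mean of 50 had log2 fold changes smaller than their SEs. All 8 plexin genes above a mean of 50 had a log2 fold change below 0, from -0.25 for PLXNB3 to -0.00037 for PLXNA4. The SEs were 0.46 to 0.53. The log2 ratios of all 8 were below 0 between the libraries numbered 1 (median -0.38) but above 0 between those numbered 2 (median 0.24). In no plexin gene did the groups separate by normalized counts, while with the GC correction PLXNB1 (1125 and 1150 against 965 and 1048) and PLXNB3 (531 and 449 against 401 and 431) were lower in both AP1AR-DT_OE libraries. PLXNB2 (ENSG00000196576, chromosome 22, 50274979 to 50307646) had 15139 and 7104 normalized counts in control cells against 12401 and 8441 in AP1AR-DT_OE cells. Both AP1AR-DT_OE values lay between the controls, the log2 fold change was -0.09 ± 0.50, and it was 0.55 without control 1. PLXND1, the receptor of SEMA3E, had 4110, 1706, 3100 and 2117 normalized counts, the same order of libraries. NRP1 (ENSG00000099250, chromosome 10, 33177492 to 33336262), a co-receptor of class 3 semaphorins and of VEGF, had 4196 and 3920 normalized counts in control cells against 3905 and 3430 in AP1AR-DT_OE cells. The groups did not overlap, with 3905 just under 3920, and the log2 fold change was -0.15 ± 0.43. NRP2 had 2179, 1535, 1841 and 1585 normalized counts and a log2 fold change of -0.12 ± 0.45.

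Ephrin-A ligands held the largest increase in value. EFNA1 (ENSG00000169242, chromosome 1, 155127876 to 155134899), a ligand of EPHA2 that is anchored in the membrane by a lipid, had 206 and 531 normalized counts in control cells against 670 and 609 in AP1AR-DT_OE cells. Both AP1AR-DT_OE libraries were above both controls, but the controls differed from each other by 1.37 log2 units. The log2 fold change was 0.79 (SE 0.55, 95% interval -0.29 to 1.88), with an unadjusted DESeq2 p of 0.153. It rested mostly on control 1, since the ratio was 1.70 between the libraries numbered 1 and 0.20 between those numbered 2, and the log2 fold change was 0.27 without control 1 and 1.64 without control 2. EFNA4, the ephrin-A gene with the highest level, had 1350 and 949 normalized counts in control cells against 1303 and 1120 in AP1AR-DT_OE cells, at 0.08 ± 0.46. EFNA2, EFNA3 and EFNA5 had log2 fold changes of 0.12, 0.02 and 0.08.

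The EPHA receptors overlapped between the groups by normalized counts. EPHA2 (ENSG00000142627, chromosome 1, 16124337 to 16156069) had 15463 and 9176 normalized counts in control cells against 13436 and 9721 in AP1AR-DT_OE cells, and its log2 fold change was -0.09 ± 0.47. The AP1AR-DT_OE values lay between the controls. EPHA1 had 278 and 172 normalized counts in control cells against 274 and 221 in AP1AR-DT_OE cells, at 0.14 ± 0.55. With the GC correction both separated, EPHA2 lower (12245 and 12031 against 11778 and 10681) and EPHA1 higher (222 and 223 against 241 and 243). Exons of EPHA1 overlap those of ZYX on the other strand, and whether counting used the strand is not stated, so its counts are uncertain.

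Ephrin-B ligands and EPHB receptors likewise overlapped between the groups by normalized counts. EFNB3 (ENSG00000108947, chromosome 17, 7705202 to 7711372), a transmembrane ligand, had 1780 and 1187 normalized counts in control cells against 1614 and 1402 in AP1AR-DT_OE cells, at 0.02 ± 0.46. EFNB2, a ligand of EPHB4 in arteries, had 163, 322, 184 and 188 normalized counts, and control 2 alone stood high. EPHB4 (ENSG00000196411, chromosome 7, 100802565 to 100827523) had 4551 and 2819 normalized counts in control cells against 4699 and 3318 in AP1AR-DT_OE cells, at 0.12 ± 0.47, and its exons overlap those of SLC12A9 on the other strand. EPHB2 had 3024 and 2908 normalized counts in the controls but 4178 and 1452 in the AP1AR-DT_OE libraries, the same pattern as SEMA4B, and was singled out after its values were seen. Its log2 fold change was -0.08 ± 0.54.

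**Figure D3:**
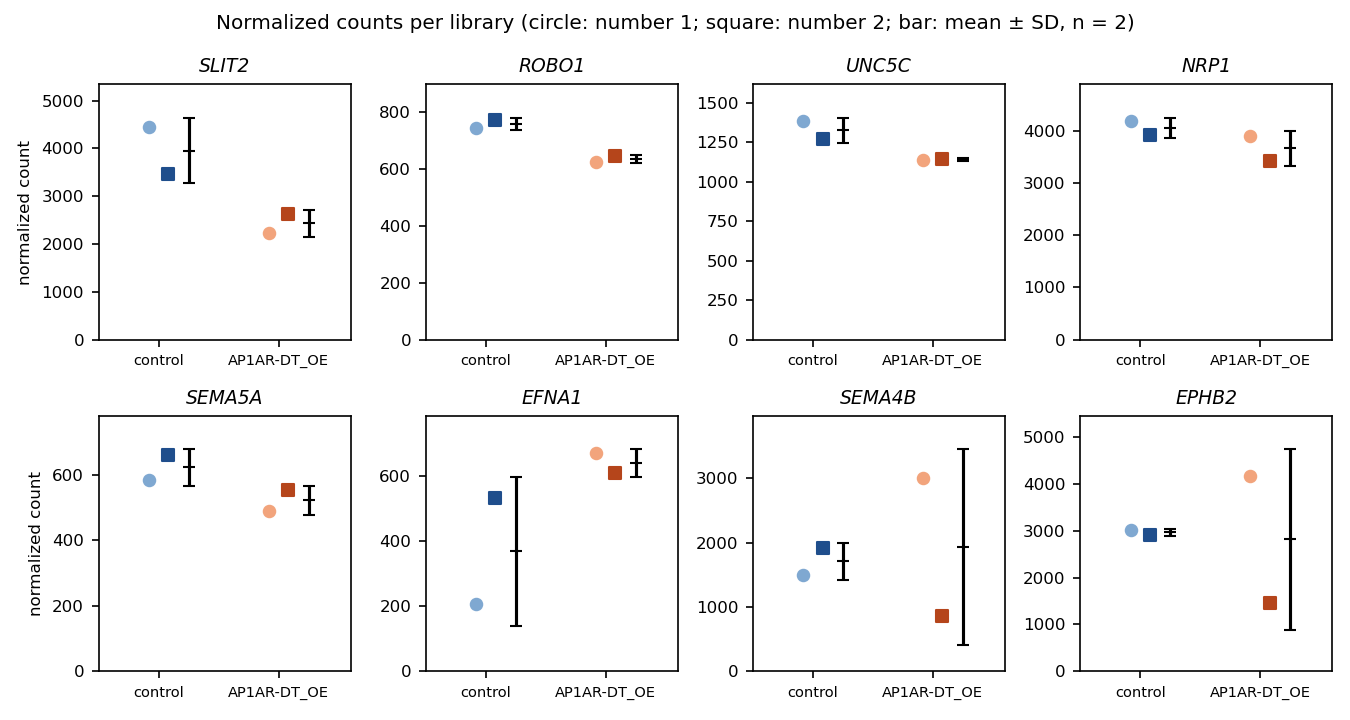
Normalized counts in each library are shown for 8 genes, with the mean ± SD of each group (n = 2) as a bar and the vertical axis starting at 0. SLIT2, ROBO1, UNC5C, NRP1 and SEMA5A are lower in both AP1AR-DT_OE libraries than in both controls and EFNA1 is higher, while SEMA4B and EPHB2 have 1 AP1AR-DT_OE library above and 1 below the controls.

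In 6 of the 50 genes the groups did not overlap. SLIT2, ROBO1, UNC5C, NRP1 and SEMA5A were lower in both AP1AR-DT_OE libraries (10% of the 50 genes, where 4.35% of the 13298 genes at this level were lower without overlap), and EFNA1 was higher (2%, where 5.11% were higher). For SLIT2, ROBO1, UNC5C and SEMA5A alone among the 50 genes, the log2 fold change was larger than the difference between the libraries of either group. This measure rests on the same values as the overlap, and its share over the table was not counted. The 5 lower genes have transcripts of 43.8% to 48.7% G and C and thus all lie in the third of the 50 genes with the lowest GC content. With counts corrected for GC content, SLIT2 had 4530 and 3423 in the controls against 2208 and 2638, and SEMA5A had 679 and 561 against 536 and 513, again with no overlap. ROBO1, UNC5C, NRP1 and EFNA1 overlapped after this correction, and other genes separated: EFNB1, EPHA2, PLXNB1, PLXNB3, SEMA3A, SEMA3C, SEMA6B, SEMA6C and SEMA7A were lower in both AP1AR-DT_OE libraries and EPHA1 was higher. Corrected counts thus gave 11 lower genes (22%, where 9.33% of 13284 genes were lower) and 1 higher (2%, where 9.96% were higher). The adjusted DESeq2 test with the GC correction called none of them. The correction also widened the difference between the controls for some genes, from -0.12 to -0.83 on the log2 scale for UNC5C. It became -0.54 for ROBO1 and -0.27 for SEMA5A. In UNC5C, ROBO1 and SEMA5A this difference was then larger than the corrected log2 fold change (-0.22, -0.24 and -0.24). In SLIT2 it was smaller (-0.40 against -0.71).

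GC content moved with the differences between libraries of the same group. Over the 50 genes, which share their 4 libraries, Spearman's rank correlation between the GC content of the transcript and the log2 ratio of control 2 over control 1 was -0.64, and over the 13231 genes of the table with both values it was -0.79. For AP1AR-DT_OE 2 over AP1AR-DT_OE 1 the rank correlation was -0.46 over the 50 genes. These are descriptions of single pairs of libraries. In the 17 genes of highest GC content (61.5% to 72.6%) the median log2 ratio of control 2 over control 1 was -0.85, and in the 17 of lowest (36.7% to 53.9%) it was 0.06. The 50 genes had a median GC content of 58.8%, above the 48.8% of the table.

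The ratio between the groups then depended on which numbered libraries were set against each other. Between the libraries numbered 1, the rank correlation with GC content was -0.12 over the 50 genes and -0.34 over 13233 genes of the table, and the median log2 ratio of the 50 genes was -0.17. Between those numbered 2, it was 0.51 over the 50 genes and 0.64 over 13236 genes, and the median was 0.15, from -0.19 in the third of lowest GC content to 0.25 in the third of highest. Of the 50 genes, 13 had the same sign in both ratios, 10 of them lower and 3 higher in AP1AR-DT_OE. Of the 13298 genes of the table at this level, 5086 had the same sign in both, 2635 of them lower and 2451 higher. Control 2 was on the median 0.69 log2 units below control 1 for the 50 genes. The part of base composition in the ratios was not tested beyond the GC correction.

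**Figure D4:**
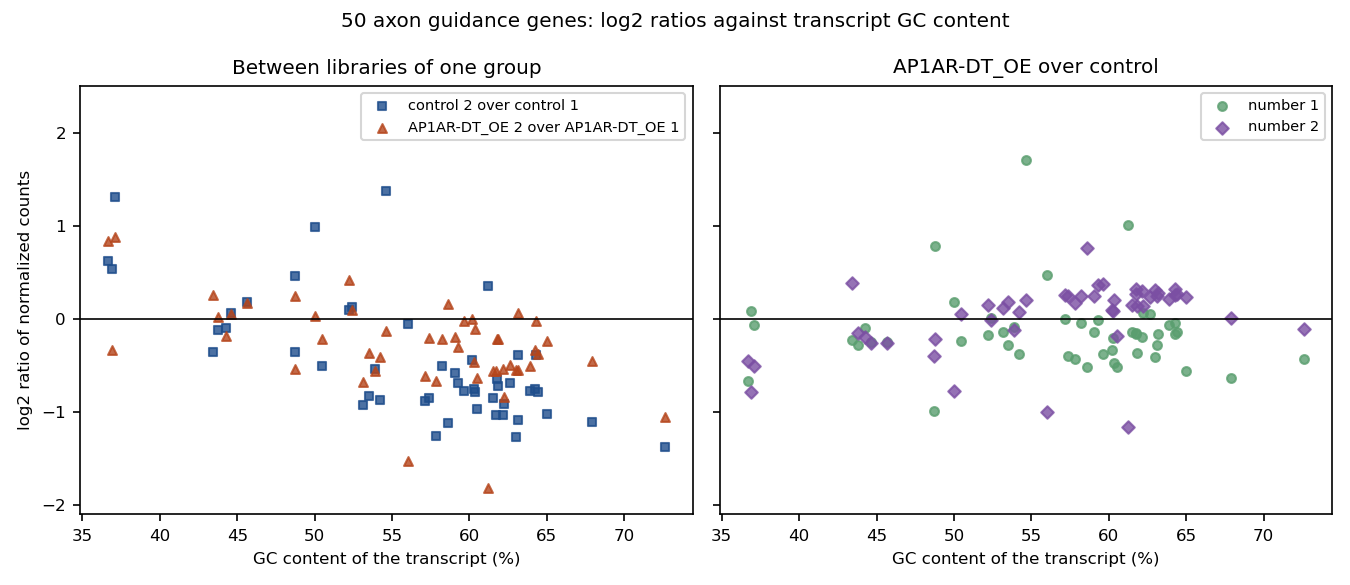
Log2 ratios of normalized counts are plotted against the GC content of the transcript for the 50 genes, on the left between the libraries of a group and on the right for AP1AR-DT_OE over control within each library number. On the left the ratios fall with GC content (rank correlation -0.64 in the controls and -0.46 in AP1AR-DT_OE), and on the right those numbered 2 rise with it (rank correlation 0.51) while those numbered 1 have a rank correlation of -0.12.

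A list of related pathway genes held effectors, co-receptors and some further ligands. None of them was called with all 4 libraries and the group alone in the design. Of the 76 genes listed, 74 were in the table and 62 had a mean of at least 50. DESeq2 called none of the 74 (0.137% of the table was called), and none had an unadjusted p under 0.05. The quasi-likelihood test of edgeR called none of these genes, and 0% of the table. The median log2 fold change of the 62 genes was -0.03. VAV2, a guanine nucleotide exchange factor that acts downstream of Eph receptors, had 2389 and 1525 normalized counts in control cells against 1272 and 905 in AP1AR-DT_OE cells. It was lower in both, with a log2 fold change of -0.85 ± 0.47 (SE) and an unadjusted DESeq2 p of 0.0738, and it was called in 1 alternative, the GC correction with the library number as a block. DRAXIN, a secreted repellent that binds netrin-1 and DCC, followed at -0.60 ± 0.69 and RGMA, the ligand of the netrin receptor neogenin, at -0.57 ± 0.74. MICAL2, which oxidises actin, had 4383 and 425 normalized counts in control cells against 4028 and 2984 in AP1AR-DT_OE cells, so that its log2 fold change of 0.54 ± 1.37 rested on control 2, and it was called without control 1. CXCR4, the receptor of a chemokine that also guides axons, had a log2 fold change of 0.33 ± 0.66.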

How the data were processed

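RNA of SK-N-SH cells (2 control and 2 AP1AR-DT_OE libraries, TruSeq kit, paired-end reads) was aligned by the authors with HISAT2 to hg19, and counts per gene were taken from the StringTie output with its Python script. The submitters' processing notes name TopHat2 2.0.4, SAMtools, HTSeq, Cuffdiff and edgeR 2.6.12 instead. The counts as deposited are whole numbers with no normalization. Low values pile up at 4 (3287 entries, against 2136 at 3 and 1509 at 5), so a read pair was taken as 4 counts and the floor as 12. The gene coordinates in the table are GRCh38 positions and are printed as given. The table also holds the fold changes and p-values of the authors' own tests, which were not used. The annotation behind the counts and the use of the strand are not given in the sources used here, so overlapping genes are uncertain. Besides EPHA1 and EPHB4, exons of UNC5C, UNC5A, NRP1, NRP2, SEMA3F, SEMA5A, SEMA6A, SLIT3 and other members overlap genes on the other strand. Exons of PLXNB3 overlap those of SRPK3 on the same strand, and exons of EFNA3 and EFNA4 overlap those of the gene EFNA4-EFNA3. Groups and library numbers came from the sample titles. For AP1AR-DT_OE 2 the title was followed, although its genotype and treatment labels end the name of the RNA in another number. Whether those labels mean the same RNA is not given.

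Counts were fitted with DESeq2 1.42.0 in R 4.3.3 (median-of-ratios size factors, Wald test, design with the group alone, default independent filtering, Benjamini-Hochberg over all 24014 genes, two-sided), after a check on simulated data. Intervals are 95% Wald intervals. Transcript length and GC content were those of 1 transcript per gene (MANE Select, else Ensembl canonical, else the longest) in GENCODE v44 lifted to GRCh37, found for 23954 genes. The GC correction removed a lowess curve (span 0.3) on GC content, fitted to the log2 ratio of each library to the mean of the 4 libraries. Genes described in full were the leading gene of each family per kb, the 4 largest changes each way at a mean normalized count of at least 50, and genes whose groups did not overlap. The members and lists were chosen with earlier results of these data known. The alternatives were edgeR 4.0.16 quasi-likelihood tests, TMM factors, a filter at 10 counts in 2 libraries, the likelihood-ratio test, the fit with no independent filtering, the library number as a block, the GC correction, counts divided by 4, and leaving out each library. The libraries differed by more than sampling noise: chi-square per degree of freedom, with counts taken as independent although a read pair gives about 4, came to 155.4 in the control pair, 69.03 in the AP1AR-DT_OE pair, 27.67 between the groups for number 1 and 34.63 for number 2.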

Additional observations from a re-analysis of the deposited data

How the results depend on the processing

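With 2 libraries per group, leaving one out leaves a group whose single library is assumed to vary like the other group. No axon guidance gene was called under any alternative except the GC correction with the replicate block, which called 1, SLIT2 (log2 fold change -0.71, DESeq2 adjusted p 0.0442; its adjusted p was 0.652 with the block alone and 1.00 with the GC correction alone). That fit and no other of those with all libraries also called 1 pathway gene, VAV2, and leaving out a library gave 0 to 1 (MICAL2, without control 1). An unadjusted p under 0.05 was reached by 2 members with the replicate block (EFNA1 and SLIT2) and by 2 with the edgeR test and the block. With the GC correction 2 members reached it (SLIT2 and EPHB6, which is at or under the floor in every library), and 2 did with that correction and the block. The share of the whole table at this level was not counted in these fits, so these counts have no background to be set against. The count of all genes called was 0 with edgeR and 44 with edgeR and the block, 57 with the GC correction, 60 with that correction and the block, 15 with counts divided by 4, and 45 to 90 with a library left out, against 33. With the GC correction, a comparison added after the data were seen, 11 members instead of 5 were lower in AP1AR-DT_OE without overlap and 1 was higher, and 2 of the 5 (SEMA5A and SLIT2) were among the 11. The median of the members ran from -0.30 to 0.31 with a library left out and stayed between -0.10 and -0.05 under the other alternatives.

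Whether the library numbers pair the samples is not given; same-numbered libraries deviated together (r = 0.49 over 13298 genes), and they differed less between the groups (chi-square per degree of freedom 27.67 and 34.63) than the libraries of a group did (155.4 and 69.03), but with 2 pairs this is only a hint, and the block changed the sign of SEMA4B alone. Of 294 values for the 21 genes described in full, 263 kept their direction and side of the threshold, 30 changed sign and 22 of these came from leaving out a library; 7 genes never changed sign. SEMA4B was -0.084 with the replicate block, -0.089 with edgeR and the block, -0.058 with the GC correction and -0.14 with both. EFNB3 was -0.0016 and -0.0017, and ROBO3 -0.0069 and -0.0078, with the GC correction without and with the block. Leaving out a library moved EFNA4 from -0.15 to 0.35, EFNB3 from -0.23 to 0.34, EPHA1 from -0.16 to 0.53, EPHA2 from -0.41 to 0.34, EPHB4 from -0.17 to 0.51, NTN3 from -0.96 to 0.51, PLXNB2 from -0.53 to 0.55, ROBO3 from -0.13 to 0.25, SEMA3F from -0.40 to 0.62, SEMA4B from -1.01 to 0.80, SEMA6A from -0.018 to 0.54, SEMA6B from -0.84 to 0.26, SEMA7A from -0.79 to 0.17 and UNC5B from -0.33 to 0.099. The cause was not tested. Depth limits the 14 members with a mean normalized count under 50, for which no direction is given.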
